A study of Mus musculus with 3 samples.

Results

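The 10 genes described here encode the enzymes that make serine, the enzymes that pass its carbon to folate in the cytosol and in mitochondria, and the transporter pair that brings large neutral amino acids into the cell. They are Phgdh, Psat1, Psph, Shmt1, Shmt2, Mthfd1, Mthfd1l, Mthfd2, Slc7a5 and Slc3a2, taken by symbol. All 10 were found among the 37646 genes listed, and all 10 passed the filter on low counts that left 11478 genes for testing. RNA came from sorted B220+GFP+ splenic lymphoma cells of C57BL/6 mice with the genotype p53F/F, Blimp1F/F, IKK2castopF/stopF, Cg1Cre/+ (pBIC), a model of the activated B cell subtype of diffuse large B cell lymphoma. Trp53 and Prdm1 (the gene of Blimp1) are floxed, a constitutively active IKK2 allele sits behind a floxed stop, and Cre is expressed from the C gamma 1 locus, so recombination depends on activity of that locus. Spleens were taken from moribund mice, and the lymphomas, called tumours 1, 2 and 3, form 1 group with 1 library each. No other tissue or group was analysed here, so the values describe levels in the tumours and differences between them. The labels do not state that the animals were unrelated, so p-values concern these samples alone.

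Serine is made from an intermediate of glycolysis by PHGDH, PSAT1 and PSPH acting in turn. SHMT enzymes split serine into glycine and a carbon unit bound to folate, and the MTHFD enzymes change the oxidation state of that unit and release it as formate, which leaves the mitochondrion and feeds purine and thymidylate synthesis in the cytosol. These genes are known to be induced in activated, dividing lymphocytes and in many tumours. SLC7A5, the light chain of an amino acid exchanger, imports leucine and other large neutral amino acids, and SLC3A2 is the heavy chain that carries it to the plasma membrane.

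All 10 genes had their highest level in tumour 2. A gene was highest in that tumour in 30.2% of all genes tested. The promoters of Psat1, Psph, Shmt2 and Mthfd2, the genes that exceeded both other tumours by more than 1.5-fold there, are shown because these genes stood apart in the same tumour. They are the 250 bases before the RefSeq start (build GRCm38.p6), written 5′ to 3′ on the strand of the gene, with each CCAAT, or its reverse complement ATTGG, in capitals. All 4 genes lie on the reverse strand.
Psat1 (chr19:15925060-15925309): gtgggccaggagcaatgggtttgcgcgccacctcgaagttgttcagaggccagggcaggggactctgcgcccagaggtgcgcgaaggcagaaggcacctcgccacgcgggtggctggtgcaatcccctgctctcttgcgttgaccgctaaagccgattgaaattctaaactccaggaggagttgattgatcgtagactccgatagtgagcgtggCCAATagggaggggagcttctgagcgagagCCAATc
Psph (chr5:129787254-129787503): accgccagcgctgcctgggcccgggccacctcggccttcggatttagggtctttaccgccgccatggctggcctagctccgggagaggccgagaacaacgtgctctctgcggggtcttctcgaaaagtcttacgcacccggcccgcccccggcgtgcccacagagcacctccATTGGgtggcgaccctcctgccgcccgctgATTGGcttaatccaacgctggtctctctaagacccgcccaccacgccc
Shmt2 (chr10:127522445-127522694): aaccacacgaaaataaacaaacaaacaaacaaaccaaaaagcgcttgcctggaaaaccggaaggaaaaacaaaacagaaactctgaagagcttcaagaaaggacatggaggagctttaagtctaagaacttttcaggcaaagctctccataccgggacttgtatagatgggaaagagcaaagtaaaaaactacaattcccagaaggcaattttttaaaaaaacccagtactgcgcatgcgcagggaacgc
Mthfd2 (chr6:83317605-83317854): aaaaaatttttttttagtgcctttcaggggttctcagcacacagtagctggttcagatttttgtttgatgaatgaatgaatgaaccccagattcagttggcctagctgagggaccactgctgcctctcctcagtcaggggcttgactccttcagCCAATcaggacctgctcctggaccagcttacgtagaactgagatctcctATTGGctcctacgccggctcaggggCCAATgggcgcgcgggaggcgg
The table of promoters held 10 entries for 9 of the 10 genes, with a second start for Psat1. CCAAT, the letters of the promoter element named the CCAAT box, was found on either strand in 6 of these 10 entries and in 33.8% of all 32851 promoters of the same length. It occurred at 3 places for Mthfd2, at 2 places each for Psph and the Psat1 start shown, and not for Shmt2. Entries of Phgdh, Shmt1 and Mthfd1 also held it, and the second Psat1 start, Mthfd1l and Slc3a2 did not. CCAAT was searched after the sequences had been seen. TGATGNAA, the core letters of an element bound by ATF4 and C/EBP factors, was in 0 of the 10 entries and in 3.45% of all promoters. CACGTG, the E-box letters, was in 0 of the 10 and in 6.02%. A match is a description of letters, and the absence of a match concerns these windows alone.

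The serine synthesis genes were all highest in tumour 2, and the transcript of the last enzyme was far less abundant than the others. Phgdh, which encodes the first enzyme (ENSMUSG00000053398.11, chromosome 3, 98313170 to 98339990), had 107.5, 200.0 and 165 CPM (read counts scaled to the library total) in tumours 1, 2 and 3. The mean was 158 ± 46.7 CPM (SD, n = 3), and tumour 1 stood lowest. Psat1, which encodes the aminotransferase that follows (ENSMUSG00000024640.9, chromosome 19, 15904678 to 15947337), had 273.5, 519 and 236 CPM. Tumour 2 was high against a close pair, by 1.90-fold over tumour 1 and 2.198-fold over tumour 3. Psph, which encodes the phosphatase that completes serine (ENSMUSG00000029446.14, chromosome 5, 129765558 to 129787449), had 24.8, 59.2 and 36.6 CPM, a 2.39-fold range. Psph shares 452 nt of exon with Cct6a on the opposite strand. Cct6a had 8749, 13361 and 9925 counts, also highest in tumour 2, against 376, 890 and 552 for Psph. The use of strand is not given in the sources used here, so reads of the shared part cannot be told apart.

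Per length, in TPM (counts divided by the length of the union of annotated exons and scaled to a common total), Psat1 had 239.8 ± 96.3 and Phgdh 189 ± 46.3 (SD, n = 3). Psat1 exceeded Phgdh in tumours 1 and 2 and lay below it in tumour 3. The difference Psat1 minus Phgdh in log2(TPM + 1) was 0.57, 0.60 and -0.26 in tumours 1, 2 and 3, with a mean of 0.30 ± 0.49 that lies within its spread (two-sided exact sign-flip permutation p = 0.5). With longest transcript lengths this mean was 0.61, with an exact sign-flip p of 0.25, which is reached only where all 3 tumours share a sign. The place of tumour 3 thus depended on the length used. Psph had 27.5 ± 10.6 TPM and was below Phgdh in 3 of 3 tumours. Its difference from Phgdh was -2.85, -2.53 and -2.92 in log2(TPM + 1), a mean of -2.77 ± 0.21, with an exact sign-flip p of 0.25. That is the smallest p that 3 tumours allow, and it is 0.375 after Benjamini-Hochberg adjustment over the 6 pairs of genes compared.

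Of the paralogs that split serine, the transcript of the mitochondrial form was the more abundant and had the wider range. Shmt2, which encodes the mitochondrial enzyme (ENSMUSG00000025403.5, chromosome 10, 127517123 to 127522444), had 336, 712 and 329 CPM in tumours 1, 2 and 3. Tumour 2 was 2.12-fold above tumour 1 and 2.17-fold above tumour 3, which nearly coincided. Shmt1, which encodes the cytosolic enzyme (ENSMUSG00000020534.14, chromosome 11, 60788104 to 60811718), had 149.6, 196 and 169 CPM, a 1.31-fold range. Shmt1 shares 184 nt of exon with Smcr8 on the opposite strand, which had 1364, 743 and 725 counts and was highest in tumour 1. In TPM, Shmt2 had 345, 654 and 315 and Shmt1 had 123, 144 and 129. The ranges do not overlap. The difference Shmt2 minus Shmt1 in log2(TPM + 1) was 1.48, 2.17 and 1.28, with a mean of 1.64 ± 0.47 (SD, n = 3), or 3.12-fold. It was positive in 3 of 3 tumours, with an exact sign-flip p of 0.25, the smallest possible, and 0.375 after adjustment over the 6 pairs.

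**Figure D1:**
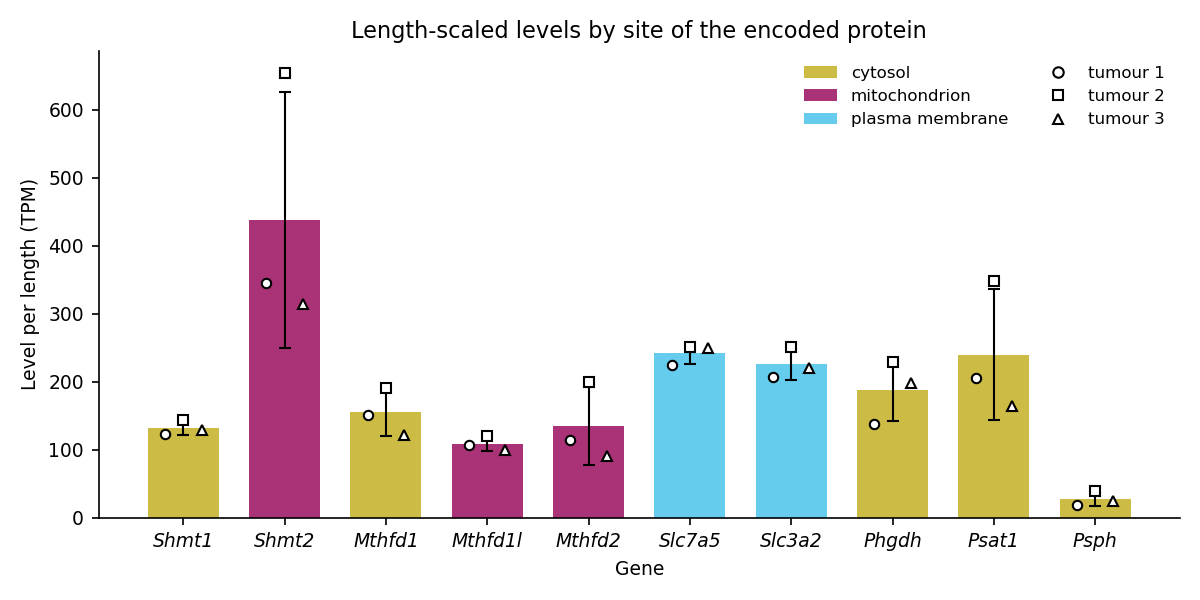
Levels per length (TPM, vertical axis) of the 10 genes (horizontal axis), coloured by where the encoded protein acts; bars are means of 3 tumours, error bars are SD and symbols are single tumours. Shmt2 has a mean of 438 TPM and no overlap with any other gene except Psat1, whose tumour 2 value of 348.5 lies within its range.

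Among the folate genes, Mthfd2 and Mthfd1 had the same order of tumours as Shmt2, and Mthfd1l had the smallest range. Mthfd2, which encodes the mitochondrial dehydrogenase and cyclohydrolase (ENSMUSG00000005667.8, chromosome 6, 83305691 to 83325908), had 124, 244 and 107 CPM in tumours 1, 2 and 3. Tumour 2 was 1.96-fold above tumour 1 and 2.28-fold above tumour 3. Mthfd1l, which encodes the mitochondrial enzyme that releases formate (ENSMUSG00000040675.17, chromosome 10, 3973118 to 4167081), had 148, 187.5 and 149 CPM, a 1.27-fold range. Mthfd1, which encodes the cytosolic enzyme with 3 activities (ENSMUSG00000021048.7, chromosome 12, 76255298 to 76319803), had 211, 298 and 182 CPM, with tumour 2 1.42-fold above tumour 1 and 1.64-fold above tumour 3. In TPM, Mthfd1 had 155 ± 34.9, Mthfd2 135 ± 57.1 and Mthfd1l 109 ± 10.6 (SD, n = 3). Mthfd1l lay below Mthfd1 in 3 of 3 tumours, by -0.50, -0.66 and -0.29 in log2(TPM + 1). The mean was -0.48 ± 0.19, with an exact sign-flip p of 0.25, the smallest possible, and 0.375 after adjustment.

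Mthfd2l, the paralog of Mthfd2 that also encodes a mitochondrial enzyme, had 0, 0 and 112 counts in tumours 1, 2 and 3. A count of 0 allows up to 3 counts, or 0.198 and 0.200 CPM in tumours 1 and 2. Against that floor of 3 counts per library and per length, Mthfd2 was at least 1194-fold higher in tumour 1 and at least 2324-fold higher in tumour 2, and it was 27.4-fold higher in tumour 3. In log2(TPM + 1) the difference was 6.85, 7.65 and 4.41, with the same exact sign-flip p of 0.25 and 0.375 adjusted. Mthfd2l did not pass the filter on low counts. Its edgeR adjusted p was 0.140 where genes were kept on a mean count of 10 or more and 1.07e-05 with no filter.

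The transporter pair was among the steadiest of the set, and the 2 chains were close to each other per length. Slc7a5 (ENSMUSG00000040010.10, chromosome 8, 121881150 to 121907694) had 259.8, 326 and 312 CPM, with a range of 1.25-fold. Its exact Poisson 95% intervals in tumours 2 and 3 overlapped, at 317 to 335 and 303 to 321 CPM. Slc3a2 (ENSMUSG00000010095.13, chromosome 19, 8706882 to 8723369) had 228, 310.2 and 261 CPM, a 1.36-fold range. In TPM, Slc7a5 had 242 ± 15.3 and Slc3a2 226 ± 22.9 (SD, n = 3). The difference Slc3a2 minus Slc7a5 in log2(TPM + 1) was -0.12, 0.00 and -0.19, a mean of -0.10 ± 0.09 (exact sign-flip p = 0.5). With the longest transcript in place of the union of exons the mean was 0.15, in the opposite direction. The order of the chains thus depended on the length used.

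**Figure D2:**
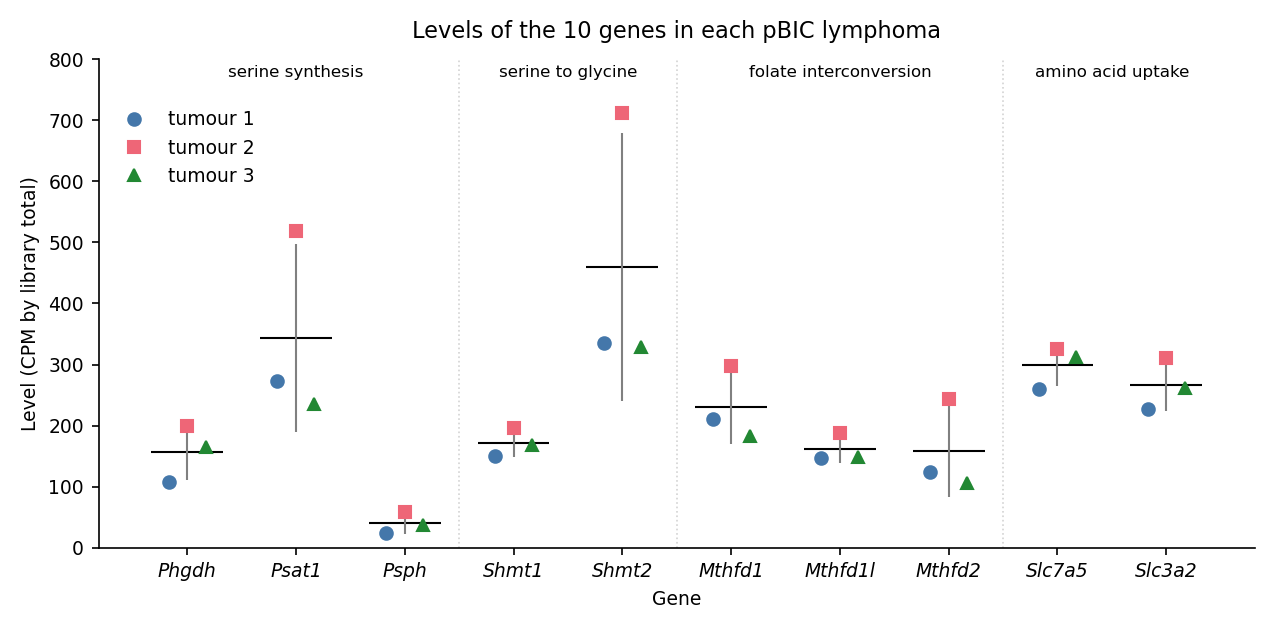
Levels in CPM by library total (vertical axis) of the 10 genes (horizontal axis) in each tumour; symbols are single tumours, horizontal lines are means and grey lines are SD over n = 3. The squares of tumour 2 are uppermost for all 10 genes, from 59.2 CPM for Psph to 712 CPM for Shmt2.

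In order of mean TPM by union exon lengths the genes were Shmt2, Slc7a5, Psat1, Slc3a2, Phgdh, Mthfd1, Mthfd2, Shmt1, Mthfd1l and Psph. The ranges over tumours did not overlap between Shmt2 and Slc7a5, between Shmt1 and Mthfd1l, or between Mthfd1l and Psph. They overlapped between all other neighbours in that order. With longest transcript lengths the genes after Shmt2 were Psat1 (305.5 TPM), Slc3a2 (222.2), Slc7a5 (200.0), Phgdh (194.2), Mthfd2 (176.8) and Mthfd1 (166.7). The order of these middle genes thus depended on the length used. Shmt2 stood at percentile 97.9 by mean TPM among genes tested and Psph at 55.8, with the other genes between 86.9 and 95.3. The median of their mean levels was 200.9 CPM, against 33.4 CPM over all genes tested. All 10 genes reached 10 CPM in every tumour, which 67.8% of all genes tested did. All but Psph reached 100 CPM in every tumour, against 15.7% of all genes tested. Together they took 0.186%, 0.305% and 0.195% of the counts of tumours 1, 2 and 3.

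The spread between tumours was far above counting error for the most variable genes but did not pass the test. The SD was 47.8% of the mean CPM for Shmt2, 47.0% for Mthfd2, 44.8% for Psat1 and 43.5% for Psph. It was 11.6 to 15.6% for Slc7a5, Shmt1, Mthfd1l and Slc3a2, with Mthfd1 and Phgdh at 26.2 and 29.6%. Counting error alone would give 1.203 to 4.06%. An edgeR quasi-likelihood model with an intercept asked if the spread of a gene between tumours exceeded that of genes with a like level. Of the 10 genes, 0 had an adjusted p under 0.05 in the edgeR test, against 0.139% of all genes tested (16 of 11478). At an unadjusted p under 0.05 there were 3, against 6.27% of all genes tested. These were Shmt2 (edgeR adjusted p = 0.735), Mthfd2 (edgeR adjusted p = 0.767) and Psat1 (edgeR adjusted p = 0.782). The adjusted p was 0.897 for Psph and 0.997 for the other 6. The count of 3 was not stable. It stayed at 3 with DESeq2 size factors (6.26% of all genes) and with no filter (5.23%). It was 2 where genes were kept on a mean count of 10 or more (6.09%). It was 1 of 10 with library totals, with the length trend removed or with no robust prior, where 6.19%, 5.51% and 4.97% of all genes had an unadjusted edgeR p under 0.05. It was 3 without tumour 1 (5.6% of all genes), 0 without tumour 2 (5.07%) and 1, Psph, without tumour 3 (4.88%). The smallest edgeR adjusted p among the 10 genes was 0.767, 0.988 and 0.977 in these 3 fits.

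Tumour 2 was the highest for 10 of 10 genes, against 30.2% of all genes tested and 37.9% of those with a mean of at least 100 CPM. The Poisson intervals of tumour 2 and the next tumour did not overlap for 9 of the 10, Slc7a5 being the exception. Of all genes tested 15.4% were likewise highest in tumour 2 with intervals apart, and of those with a mean of at least 100 CPM 28.5% were. Psat1, Psph, Shmt2 and Mthfd2 exceeded both other tumours by more than 1.5-fold in tumour 2, as 4.26% of all genes tested did. The same 4 genes ranged over more than 2-fold between the highest and the lowest tumour, which 29.2% of all genes did. The order of the other tumours was not shared. Tumour 1 was lowest for Phgdh, Psph, Shmt1, Mthfd1l, Slc7a5 and Slc3a2, and tumour 3 for Psat1, Shmt2, Mthfd1 and Mthfd2. These counts carry no test, since the tumours form 1 group and no label sets tumour 2 apart.

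**Figure D3:**
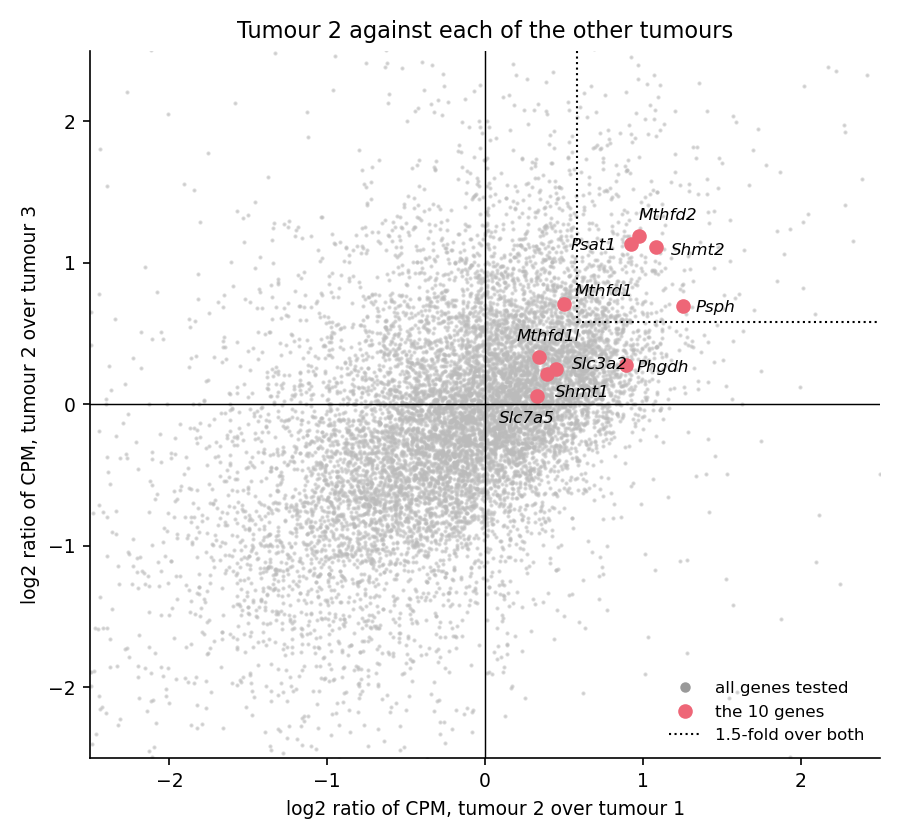
Log2 ratio of CPM of tumour 2 over tumour 1 (horizontal axis) and over tumour 3 (vertical axis) for genes tested (grey) and the 10 genes (red); 224 genes fall outside the axes. All 10 genes lie above 0 on both axes, and Psat1, Psph, Shmt2 and Mthfd2 lie beyond the dotted line at 1.5-fold over both tumours.

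Gene length also separated tumour 2. Total counts were alike (15022902 to 15141009) and mitochondrial genes took 4.86 to 5.59% of counts. Genes with short exon unions were higher in tumour 2 and long ones lower. Genes tested were put in 5 bins of equal size by length. The share highest in tumour 2 was 49.1% in the shortest bin, 40.9% and 29.4% in the next bins, and 11.99% in the longest. The 10 genes fall in those next bins, with 4 genes in the shorter and 6 in the longer. With a per-library trend on length removed, tumour 2 was still the highest for all 10, against 35.2% of all genes tested. Shmt2 was then 2.004-fold above tumour 1 and 2.14-fold above tumour 3, and Psat1 1.99-fold and 2.30-fold.

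Markers of cell types differed between tumours, and some were abundant. All 6 B cell markers exceeded 10 CPM in every tumour, and their summed level was 3471, 1882 and 1891 CPM in tumours 1, 2 and 3. Of the 7 macrophage markers 2 reached 1 CPM in every tumour. They summed to 16.1, 72.0 and 9.42 CPM, and 1 of them, Lyz2, passed the edgeR test (7.73, 53.8 and 4.11 CPM, adjusted p = 0.0372). The 4 plasma cell markers, of which 3 reached 1 CPM in every tumour, summed to 139, 567 and 308 CPM. Like the macrophage sum and the 10 genes, the plasma cell sum was highest in tumour 2. It was led by Jchain (36.3, 396 and 236.5 CPM, edgeR adjusted p = 0.0363) and Xbp1 (95.6, 151 and 62.0 CPM, edgeR adjusted p = 0.807). Sdc1, the defining surface marker, was at 0.332 to 0.466 CPM. The remaining marker, Prdm1, is floxed in this model and had 6.54, 19.2 and 9.49 CPM. Whether Jchain, Xbp1 and Prdm1 were read from the lymphoma cells or from other cells cannot be told from these counts. Of the 7 erythroid markers 4 reached 1 CPM in every tumour. They summed to 8.78, 27.3 and 169 CPM, highest in tumour 3, and Hbb-bs passed the edgeR test (2.64, 8.32 and 62.6 CPM, adjusted p = 0.0234). The calls of Lyz2, Jchain and Hbb-bs were not stable. With library totals, with the length trend removed or with no robust prior, 0 genes were called over the whole table. The 6 T cell markers, 5 of them at 1 CPM in every tumour, summed to 18.8, 21.1 and 37.0 CPM. The 6 neutrophil markers, 0 of them at 1 CPM in every tumour, summed to 54.7, 18.5 and 2.85 CPM. The 3 endothelial markers summed to 0.133 to 1.72 CPM, with Kdr at 0 counts in tumours 2 and 3, and the 4 stromal markers to 0.332 to 1.06 CPM, with Col3a1 at 0 in all. The part of other cells in the levels of the 10 genes was not tested. In bulk RNA, fewer cells of a type and less RNA per cell cannot be told apart.

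The rest of folate metabolism did not share the pattern as a whole. Over all genes tested, 30.2% were highest in tumour 2, 0.139% were called and 6.27% had an unadjusted edgeR p under 0.05. These shares are the background for this list and those that follow. Of 17 genes of the folate cycle and folate transport 12 were tested, of which 4 were highest in tumour 2 and 0 passed the edgeR test, with 1 at an unadjusted p under 0.05. The folate carrier gene Slc19a1 led the list, with 107, 118 and 112 CPM in tumours 1, 2 and 3. Fpgs, whose enzyme adds glutamates to folate, had 60.0, 93.9 and 98.5 CPM. Tyms, the gene of thymidylate synthase, had 41.5, 82.2 and 31.97 CPM (edgeR adjusted p = 0.746) and was named after its values were seen. Of the 4 glycine cleavage genes, Gldc had no count in any tumour and Amt had 0.862 to 1.85 CPM, while Dld and Gcsh had 142 ± 24.7 and 59.4 ± 14.0 CPM (SD, n = 3). Dld and Gcsh encode the L and H proteins of that system, Gldc the decarboxylase and Amt the aminomethyltransferase.

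The purine pathway, a user of folate-bound carbon, was highest in tumour 2 for 9 of 13 genes, and 0 of 13 passed the edgeR test, also at an unadjusted p under 0.05. Its median ratio was 1.24 for tumour 2 over tumour 1 and 1.27 for tumour 2 over tumour 3, against 0.938 and 0.958 for all genes tested. Paics had 342, 539.5 and 364 CPM in tumours 1, 2 and 3. Atic, whose enzyme uses formyl-folate, had 327.5, 443 and 238 CPM, and Gart, which uses it too, had 304, 332 and 316 CPM. The 10 genes had median ratios of 1.64 and 1.44 on the same measure.

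In the methionine cycle and transsulfuration 3 of 7 tested genes were highest in tumour 2, and none of these 7 had an unadjusted edgeR p under 0.05. Ahcyl2, related to the hydrolase of S-adenosylhomocysteine, led with 1125, 684 and 915 CPM and was lowest in tumour 2. Mat2a, which makes S-adenosylmethionine, had 310.5, 304 and 208 CPM, and Mtap, the methionine salvage gene, had 177.5, 237 and 180.2 CPM. Cth, which encodes the enzyme that makes cysteine from cystathionine, had 57, 448 and 7 counts and did not pass the filter on low counts, so it has no value in the main test. Its levels were 3.76, 29.8 and 0.464 CPM, 7.92-fold and 64.2-fold higher in tumour 2 than in tumours 1 and 3. It was named after its values were seen. Where genes were kept on a mean count of 10 or more its edgeR adjusted p was 0.139 and with no filter 2.72e-06, so its call rests on the filter.

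Glutathione synthesis had 3 of 4 tested genes highest in tumour 2 and none at an unadjusted edgeR p under 0.05. Gclc and Gclm, the subunits of the first enzyme, had 55.6 ± 14.5 and 45.6 ± 8.51 CPM, and Gss 25.1 ± 2.99 CPM (SD, n = 3). Other non-essential amino acid synthesis had 6 of 11 tested genes highest in tumour 2 and 0 called by edgeR, with 3 at an unadjusted p under 0.05. The aspartate aminotransferase genes Got2 and Got1 had 324 ± 63.2 and 225 ± 53.9 CPM. The 3 with the small p, named after their values were seen, all exceeded both other tumours by more than 1.5-fold in tumour 2. Pycr1, a proline synthesis gene, had 14.1, 36.2 and 7.496 CPM (edgeR adjusted p = 0.495). Gpt2, an alanine aminotransferase gene, had 22.6, 45.7 and 11.3 CPM (edgeR adjusted p = 0.526). Bcat1, a branched-chain aminotransferase gene, had 83.0, 173.5 and 60.6 CPM (edgeR adjusted p = 0.579).

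ATF4 is known to activate Phgdh, Psat1, Shmt2, Mthfd2, Asns and several transporter genes when amino acids run short. Atf4 itself had 267, 338 and 321.5 CPM, a range of 1.26-fold. These are levels of mRNA, and the activity of the ATF4 protein was not measured. The part of ATF4 in the levels of the serine, folate and transporter genes was not tested. Of the 16 tested genes of ATF4 and the integrated stress response 8 were highest in tumour 2, 0 passed the edgeR test and 3 had an unadjusted p under 0.05. Asns, the asparagine synthetase gene, had 59.1, 165 and 56.9 CPM (edgeR adjusted p = 0.444). Tumour 2 was 2.79-fold and 2.89-fold above the others. Cebpg, the gene of a C/EBP factor, had 49.7, 61.8 and 19.2 CPM (edgeR adjusted p = 0.63), with tumour 3 low. Atf3, a stress-induced factor gene, had 12.5, 2.86 and 22.6 CPM (edgeR adjusted p = 0.513) and was lowest in tumour 2. These are the 3 with the small p. Ddit3, the gene of the factor CHOP, was also lowest in tumour 2, with 32.8, 11.3 and 21.9 CPM, as was Ppp1r15a, which helps reverse phosphorylation of eIF2, with 169.9, 77.4 and 109.7 CPM. Trib3, a target of the stress response, was highest there, with 4.23, 8.99 and 1.53 CPM (edgeR adjusted p = 0.848). These 6 genes were named after their values were seen. Eif2s1, the gene of the phosphorylated initiation factor, and Ppp1r15b, which helps reverse that phosphorylation, had 201 ± 38.9 and 158 ± 8.40 CPM (SD, n = 3).

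Other amino acid transporters were highest in tumour 2 for 5 of 15 tested genes, and 0 passed the edgeR test, with 4 at an unadjusted p under 0.05. These 4 were named after their values were seen. Slc38a9 (113.7, 39.6 and 79.3 CPM) and Slc36a4 (23.2, 10.4 and 38.2 CPM) were lowest in tumour 2. Slc43a2 was highest in tumour 1 and Slc1a4 in tumour 2. The glutamine carrier gene Slc1a5 had 339, 404 and 366 CPM, and Slc38a1, also a glutamine carrier, 292, 249.6 and 339 CPM. Sfxn1, whose product carries serine into mitochondria, had 270.5, 334 and 270.1 CPM and was highest in tumour 2. Genes of mTORC1 and amino acid sensing were highest in tumour 2 for 6 of 19, with 0 called and 3 at an unadjusted edgeR p under 0.05. These 3 were Sesn1, Sesn3 and Rragd. Sesn3 (93.1, 30.9 and 63.0 CPM) and Rragd (2.31, 0.799 and 5.97 CPM), named after their values were seen, were lowest in tumour 2. Sesn1, a sestrin gene of that list, had 102, 108 and 292.5 CPM, highest in tumour 3 (edgeR adjusted p = 0.533), while Rragc and Mtor had 126 ± 26.9 and 94.5 ± 25.5 CPM (SD, n = 3). Serine use in lipids and serine breakdown had 1 of 8 tested genes highest in tumour 2 and 0 at an unadjusted edgeR p under 0.05. Serinc3, a membrane protein gene, led with 1617, 1328 and 1383 CPM, ahead of Serinc1 at 80.8 ± 11.5 CPM and Ptdss1, a phosphatidylserine synthase gene, at 71.6 ± 7.47 CPM.

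A list of 15 genes of S phase and mitosis, added after the counts had been seen, was highest in tumour 2 for 13 genes. Of all genes tested 30.2% were highest there, and of those with a mean of at least 100 CPM 37.9%. The median level of the list was 228, 303 and 180 CPM in tumours 1, 2 and 3. In the edgeR test 0 of 15 passed, with 4 at an unadjusted p under 0.05, against 6.27% of all genes tested. The exceptions were Mki67, a marker of dividing cells, at 852, 433 and 312 CPM, and Top2a, a mitotic topoisomerase gene, at 664, 604 and 275 CPM. Both were highest in tumour 1. Their means of 532 and 514 CPM were 162 and 173 TPM, as for long genes. Of the longest bin of genes 11.99% were highest in tumour 2. Rrm1, with 424 CPM and 115 TPM, is long by the same measure and was highest in tumour 2. The part of length in these levels was not tested. Myc, whose product is known to activate serine and folate genes, had 849, 815 and 1067 CPM, lowest in tumour 2 (edgeR adjusted p = 0.997). The parts of MYC and of cell division in the levels of the 10 genes were not tested.

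**Figure D4:**
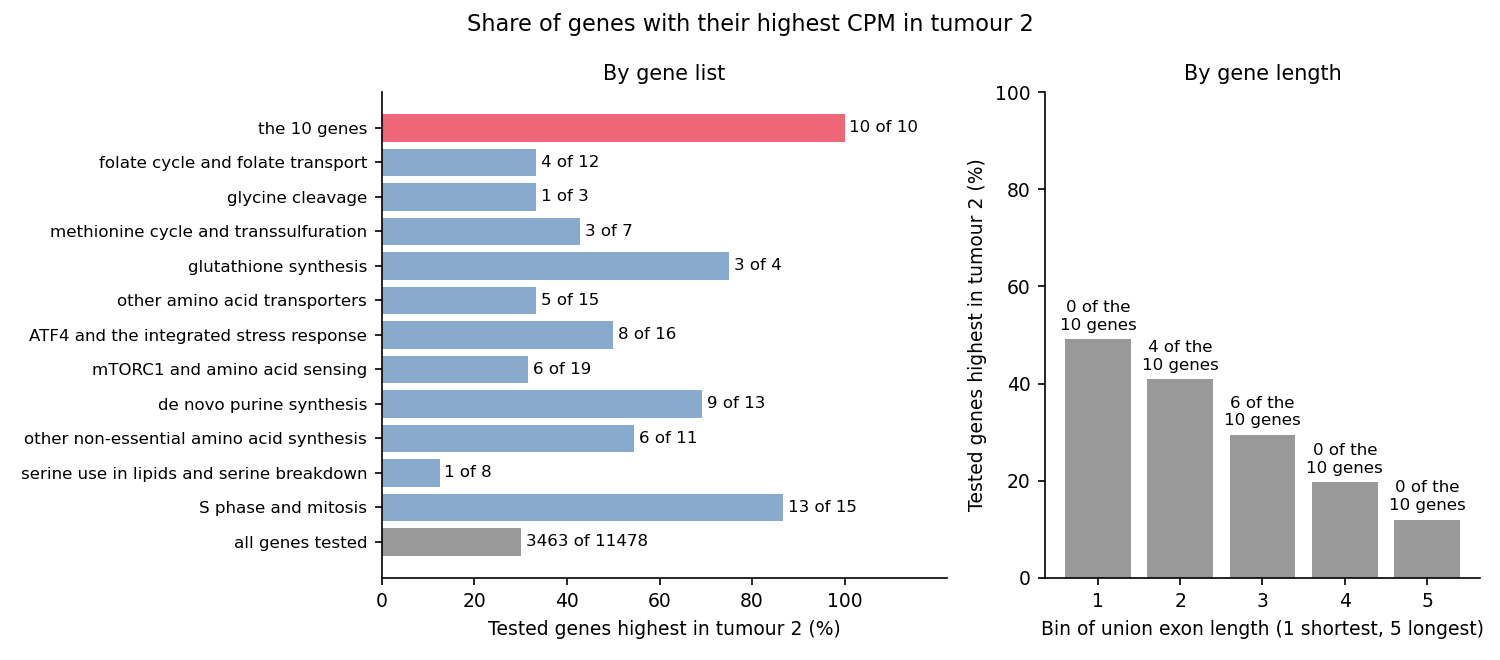
Left, the percent of tested genes (horizontal axis) with their highest CPM in tumour 2 for the 10 genes, each pathway list, the S phase and mitosis list and all genes tested; right, the same percent (vertical axis) by bin of union exon length, of 5 bins. The 10 genes stand at 10 of 10 and all genes tested at 3463 of 11478, and the share falls from 49.1% in the shortest bin to 11.99% in the longest.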

How the data were processed

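Polyadenylated mRNA of 3 sorted lymphomas was sequenced as single reads, per the labels. The files, as deposited, hold unscaled read counts for each gene. Per the submitters' processing notes, FastQC, STAR 2.5.2b and featureCounts 1.6.0 were used with build mm10. Settings, strand use and annotation release: not given in the sources used here. The tumours are numbered in accession order.

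Levels are counts scaled to the library total (CPM). TPM used union exon lengths of GENCODE M21 (GRCm38, the assembly of mm10), in which 37536 of 37646 genes were found. Coordinates are 1-based. Variability between tumours was tested with edgeR 4.0.16 in R 4.3.3 on all 11478 genes that passed filterByExpr, with TMM factors of 0.9595 to 1.023. The model held an intercept. Its residual deviance (2 degrees of freedom), relative to the robust prior variance, gave a one-sided F test, adjusted by Benjamini-Hochberg over all genes. The procedure was tested on simulated data. The filter needs a minimum in every tumour, so a gene near absent in 1 tumour is not tested. The plan fixed no other contrast, since the labels give 1 group. Intervals and floors (3 counts) cover counting error only, as the libraries carry no molecular identifiers.

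Alternatives covered normalization (DESeq2 1.42.0 size factors, library totals), filters, each library left out, gene length and the prior. The members, lists and pairs were chosen with earlier results of these data known. Named genes are all members and, in each pathway list, the 3 with the highest mean CPM and any called, with the exceptions stated. Of these, 2 are not reported here. Genes likest in pattern are not named, since 3 libraries give no measure of likeness. Promoters are from RefSeq.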

Additional observations from a re-analysis of the deposited data

How the results depend on the processing

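Of the 10 genes, 0 were called by edgeR under any of the 9 alternatives, with adjusted p from 0.645 to 0.998. The count of genes called over the whole table, 16, fell to 0 with library totals, when genes were kept on a mean count of 10 or more, with the length trend removed and without the robust prior, rose to 164 with no filter, and was 0 to 11 without 1 library (0 without tumour 1 or tumour 2). It was 15 with DESeq2 size factors. The number of the 10 genes highest in tumour 2 stayed at 10 with TMM, DESeq2 size factors or the length trend removed, all chosen after seeing the data. The number over 1.5-fold was 5 under each of these, with Mthfd1 added, while the share of all genes tested went from 4.26% to 6.26%, 6.15% and 4.78%. Of the differences between genes, Slc3a2 minus Slc7a5 turned from -0.10 to 0.15 with longest transcript lengths, and the others kept their direction under every alternative run. Psat1 minus Phgdh ranged from 0.16 to 0.58 without 1 library, and was 0.61 with longest transcript lengths and 1.07 with no division by length. Mean levels moved by less than 1 SD except for Slc7a5, at 200.0 TPM with longest transcript lengths. No paired analysis was possible because the tumours form 1 group and their numbers pair nothing.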
